A study of Mus musculus with 2 samples.

Results

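The aldo-keto reductases described here are 10 mouse genes, Akr1b3, Akr1b8, Akr1c6, Akr1c12, Akr1c13, Akr1c14, Akr1c19, Akr1c20, Akr1d1 and Akr7a5. They were taken by gene name from the spots of the scanner tables that are not controls, which gave 11 probes on 20 spots per array, of 39424 probes on 43020 spots in all. The members were selected on the measured difference between these same arrays, where the family was mostly lower, so their values are a description and nothing is tested with them. RNA came from primary hepatocytes, the parenchymal cells of the liver taken into culture, 24 hours after transfection with 50 pmol of G0s2 siRNA or 50 pmol of control siRNA. Both kinds of cells were kept in medium with 10% fetal bovine serum in 24-well plates. Strain, sex and age of the mice, the number of siRNA duplexes and the pooling of wells are not given in the labels. With 1 array for each siRNA, nothing could be checked against replicates, and no p-value is given.

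Aldo-keto reductases are soluble enzymes that use NADPH or NADH to turn aldehydes and ketones into alcohols. In the liver they act on sugars, on aldehydes from lipid peroxidation and diet, on drugs, and on steroids and bile acid precursors. The AKR1B branch holds aldose reductase and its relatives, the AKR1C branch holds the hydroxysteroid dehydrogenases, AKR1D1 is the steroid 5-beta-reductase of bile acid synthesis, and the AKR7 branch reduces aflatoxin dialdehyde and succinic semialdehyde.

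The 60-base probes that carry the main values are shown because close relatives can only be told apart through them. Their positions on mm9, as the scanner tables give them, are chr13:4247522-4247581 (plus strand) for Akr1c19, chr13:4204668-4204727 (plus) for Akr1c13, chr13:4272198-4272257 (minus) for Akr1c12, chr6:34253930-34253982 and chr6:34260573-34260632 (both minus) for Akr1b3, and chr6:34318338-34318397 (plus) for Akr1b8. Capitals mark the longest run that a probe shares with any other of the 22 probes to 20 genes of the superfamily. Those runs were 7 to 9 bases long.
Akr1c19: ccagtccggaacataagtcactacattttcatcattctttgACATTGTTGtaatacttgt
Akr1c13: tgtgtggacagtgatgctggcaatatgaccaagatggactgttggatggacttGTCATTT
Akr1c12: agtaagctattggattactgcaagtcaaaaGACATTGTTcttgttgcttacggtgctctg
Akr1b3, position 1238: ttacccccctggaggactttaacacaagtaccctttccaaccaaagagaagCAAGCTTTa
Akr1b3, position 516: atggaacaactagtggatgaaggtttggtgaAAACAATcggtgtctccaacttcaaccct
Akr1b8: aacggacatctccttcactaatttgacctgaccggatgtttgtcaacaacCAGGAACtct
Every probe was designed on a messenger RNA, and the position counts bases from the start of that transcript. Binding of a probe to the transcript of a relative was not tested, and the separate values of Akr1c12, Akr1c13, Akr1c18 and Akr1c19 are uncertain for that reason. Exon and UTR annotation of mm9 was not used here.

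Levels are log2 processed signals relative to the 75th percentile of each array, and a difference is the G0s2 siRNA level less the control level. Its error, after the ± sign, comes from the signal errors in the scanner tables and does not cover how cultures or RNA preparations vary. On the G0s2 siRNA array the 75th percentile lay at 728 signal units and on the control array at 418, a log2 gap of 0.80. All differences below are relative to that gap unless they are called uncentred, which means processed signals as scanned. G0s2 itself, an inhibitor of the lipase ATGL, had a processed signal of 102.6 on the G0s2 siRNA array and 383.1 on the control array. Its difference was -2.70 ± 0.21, and the 2 arrays thus stood in the direction of their labels. Of 15419 genes measured, 842 (5.46%) were lower and 742 (4.81%) higher by 2-fold or more. With spike-in centring 47 were lower and 11904 higher, and uncentred 156 were lower and 4555 higher. Spike-in centring rests on 8 probes, whose uncentred log2 ratios, G0s2 siRNA over control siRNA, ran from -0.98 to -0.04. Hepatocyte markers were well above background for 8 of 8 genes on both arrays.

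All 9 measured members were lower on the G0s2 siRNA array relative to the 75th percentile, between -1.45 for Akr1c19 and -0.30 for Akr7a5. Among all genes 52.1% lay below 0. The members' median was -0.89, while the median of all measured genes was -0.03. Akr1c19 and Akr1b3 were at least 2-fold lower, which is 2 of 9 (5.46% of all genes), and 6 of 9 were at least 1.5-fold lower (14.6% of all genes). Since the contrast chose the members, these shares are descriptions. The same 6 genes were lower by more than 2 times the scanner error, as were 19.7% of all genes. That error was nearly the same for most genes, with a median of 0.2043 and a lowest value of 0.204. The rule thus acts much like a further fold cut and is no separate check of noise. Akr1d1, the remaining member, was not well above background on either array. Uncentred, 5 of the 9 members still had the lower signal on the G0s2 siRNA array (9.01% of all genes), namely Akr1c19, Akr1b3, Akr1c13, Akr1c6 and Akr1c14.

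**Figure D1:**
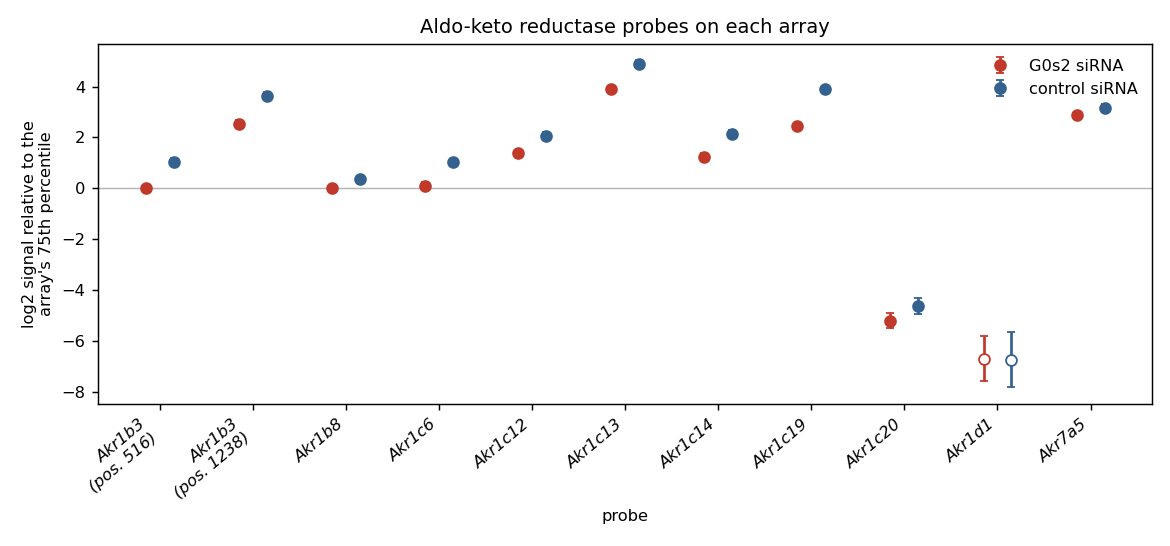
Log2 signal relative to each array's 75th percentile for the 11 probes of the 10 members, with G0s2 siRNA in red left of control siRNA in blue, 1 array each; bars are the scanner's signal error and are hidden where smaller than the point. In each pair of filled points the red one is the lower, and the open points of Akr1d1 were not well above background.

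**Figure D2:**
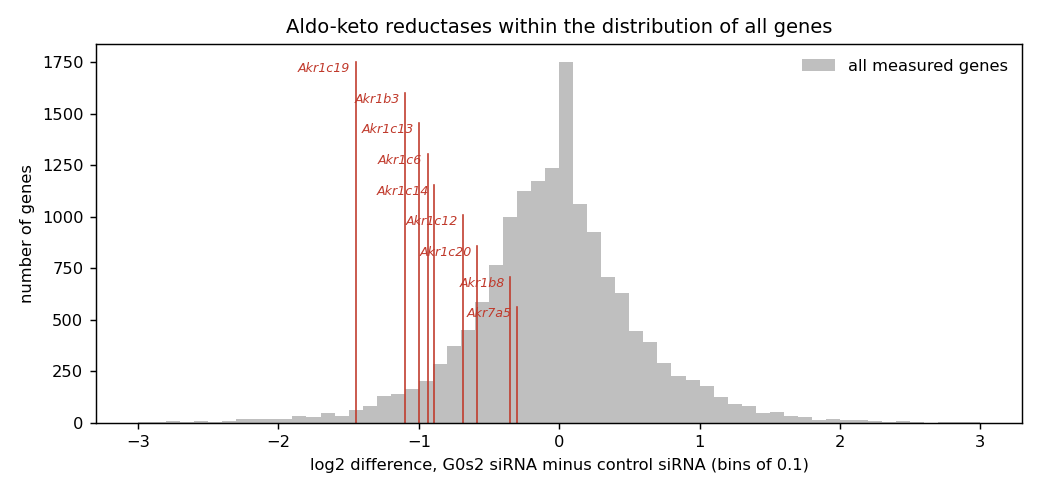
Number of genes per bin of 0.1 in the log2 difference, G0s2 siRNA minus control siRNA, for those of the 15419 measured genes that lie within 3 units of 0 (grey bars), with the 9 measured members as red lines whose heights carry no value. Members lie from -1.45 to -0.30; the tall bin at 0 also holds genes above background on 1 array whose bound was set to 0.

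The AKR1B members differed in size. Akr1b3 encodes aldose reductase, which turns glucose into sorbitol as the first step of the polyol pathway. Its probe at position 1238 had a processed signal of 4224 on the G0s2 siRNA array and 5191 on the control array, a difference of -1.10 ± 0.20 or 2.14-fold lower, although under normexp it was -0.87, short of 2-fold. The probe at position 516 had 725.6 with G0s2 siRNA and 858.4 with control siRNA, a difference of -1.04 ± 0.20. Both probes were thus lower by nearly the same amount. Their gap of 0.05 is smaller than the median gap of 0.27 between probes of a gene, over 3377 genes with at least 2 probes above background on both arrays. In 90% of those genes the gap was below 0.88, which bears on every member seen through 1 probe. Most other members have 1 probe on 1 spot.

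Akr1b8, an aldose reductase-like gene first described as induced by fibroblast growth factor, is the one member printed many times. Its 9 kept spots on the G0s2 siRNA array ran from 701.5 to 739.4 with a median of 732.9, and its 10 spots on the control array from 502.2 to 580.2 with a median of 525.8. As scanned, the G0s2 siRNA spots were all the brighter ones. Relative to the 75th percentile they ran from -0.05 to 0.02 on the G0s2 siRNA array and from 0.26 to 0.47 on the control array. The spots of the 2 arrays did not overlap on either scale, but the order turned with the centring. How many other replicated probes lack overlap was not counted. Over 247 probes with at least 5 kept spots, the median SD between spots was 0.05 on each array on the log2 scale. The lack of overlap is therefore not shown to be particular to Akr1b8. Centred, the difference was -0.35 ± 0.20, and uncentred it was 0.45. The SD between spots was 0.02 on the G0s2 siRNA array and 0.08 on the control array on the log2 scale. Spots of 1 array share the RNA and the labelling, so this spread says nothing of variation between cultures. A further spot on the G0s2 siRNA array, at 735.8, was left out because the scanner program marked it as an outlier.

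**Figure D3:**
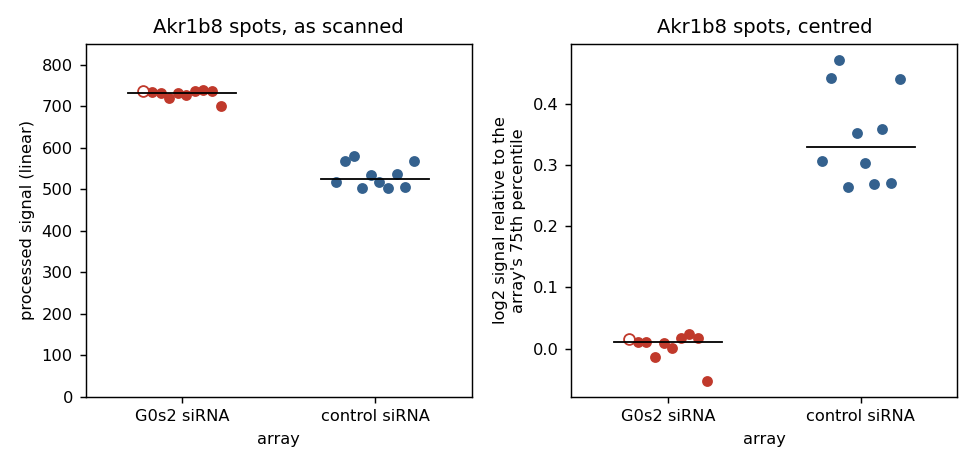
Processed signal (left, linear) and log2 signal relative to the array's 75th percentile (right) of the replicate spots of the Akr1b8 probe, G0s2 siRNA left of control siRNA; each point is a spot, lines are medians and the open point is the spot left out. The G0s2 siRNA spots are higher as scanned, from 701.5 against at most 580.2, and lower after centring, at most 0.02 against at least 0.26.

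The hydroxysteroid dehydrogenase members all lie in the Akr1c cluster of chromosome 13, and 6 of 6 were below 0 with a median of -0.91. Akr1c19 had the lowest difference of the members. Its signal was 3945 on the G0s2 siRNA array and 6197 on the control array, a difference of -1.45 ± 0.20 or 2.73-fold lower, and 1.92% of all measured genes had a difference that low. Akr1c19 was the only member below 0 under each of 12 other settings, from -1.45 to -0.05. Akr1c13 had 10810 with G0s2 siRNA and 12402 with control siRNA, and its difference of -0.997 ± 0.20 was just short of 2-fold. For Akr1c12 the signals were 1884 and 1741 in the same order, G0s2 siRNA and control siRNA, and the difference was -0.68 ± 0.20. Both genes encode reductases of the AKR1C branch. With normexp background correction the order of this pair was the other way round, at -1.003 for Akr1c12 and -0.783 for Akr1c13. That setting started from mean spot signals and median background signals, not from the processed signals. Its shifts can therefore not be credited to background correction alone.

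Akr1c6 encodes an estradiol 17-beta-dehydrogenase of mouse liver. Its signal was 775.8 on the G0s2 siRNA array and 853.3 on the control array, a difference of -0.94 ± 0.20. Akr1c14 encodes a 3-alpha-hydroxysteroid dehydrogenase, which reduces the ketone at that position of steroids and bile acid precursors. It had 1727 with G0s2 siRNA and 1841 with control siRNA, a difference of -0.89 ± 0.20. The differences of Akr1c6, Akr1c13 and Akr1c14 thus lay closer together than the error of any of them. Akr1c20 was near background, at a level of -5.21 on the G0s2 siRNA array and -4.62 on the control array, where the lowest levels well above background were -5.33 and -4.87. Its difference of -0.58 ± 0.42 is less than 2 times its error.

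Akr1d1, the steroid 5-beta-reductase that acts before the 3-alpha-hydroxysteroid dehydrogenases in bile acid synthesis, had 7.01 with G0s2 siRNA and 3.93 with control siRNA. Neither signal was well above background, so no difference is given, and the 1 probe, at position 1996, leaves other parts of the transcript unmeasured. Akr7a5, the aflatoxin aldehyde reductase gene, had 5343 on the G0s2 siRNA array and 3787 on the control array. Centred, that is -0.30 ± 0.20, the smallest difference among the members, and uncentred 0.50. Its probe matches chr4:138872907-138873502 of mm9, which is 596 bases for a probe of 60, so the match is split.

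Other genes of the superfamily were looked at from a list of 10, of which 5 were measured. Of these 5, 4 were below 0 and 1 was lower by 2-fold or more, and their median was -0.46. Akr1c18, the 20-alpha-hydroxysteroid dehydrogenase that inactivates progesterone, was lower than any member. It had 111.4 on the G0s2 siRNA array and 194.7 on the control array, a difference of -1.60 ± 0.22 or 3.04-fold lower. Akr1b10 differed by -0.94 ± 0.20, and its other probe by -0.90. Akr1b7, a gene known from the vas deferens and adrenal, differed by -0.46 ± 0.21. The values of a pair of widely expressed enzymes were nearer 0. Akr1a1, the aldehyde reductase that makes the precursor of vitamin C in mice, had 31491 with G0s2 siRNA and 20215 with control siRNA, a difference of -0.16 ± 0.20, within its error. Akr1e1, which reduces 1,5-anhydrofructose, had 1066 with G0s2 siRNA and 610.9 with control siRNA, a difference of 0.01 ± 0.20, and of -0.23 under normexp. Akr1c21, Akr1cl and the potassium channel beta subunit genes Kcnab1, Kcnab2 and Kcnab3 were not well above background on either array. Members and listed relatives together gave 14 measured genes, with 13 below 0, 3 lower by 2-fold or more and 0 higher by that much. Over all genes the shares were 52.1%, 5.46% and 4.81% in the same order. The pooled counts include the 9 measured members, which were chosen for being lower on these arrays, so they are a description only.

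**Figure D4:**
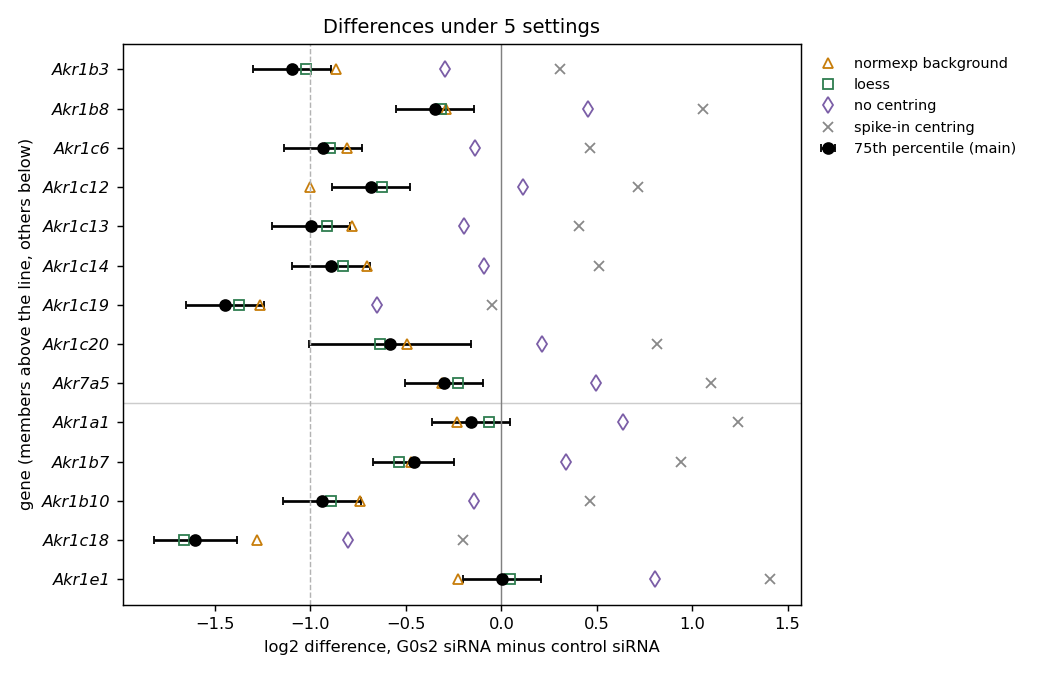
Log2 difference, G0s2 siRNA minus control siRNA, for the 9 measured members (above the line) and 5 other measured genes of the superfamily (below it) under 5 settings, 1 array per group; bars are the scanner error of the main value and the dashed line is 2-fold lower. Under normexp and loess the members stay left of 0, without centring 5 of 9 do, and with spike-in centring only Akr1c19 does.

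Most of these genes lie in clusters on chromosomes 13 and 6. Neighbours were taken by position from the RefSeq gene order of GRCm38.p6, after the members' values had been seen. On chromosome 13 the Akr1c genes stand in the order Akr1c14, Akr1c18, Akr1c13, Akr1c19, Akr1c12, Akr1c6, Akr1c20 and Akr1c21, followed by Akr1e1, and all 7 measured Akr1c genes were between -1.60 and -0.58. The measured flanking genes lay at or above 0. Net1 differed by 0.59, the transcription factor gene Klf6 by 0.01, the mitochondrial peptidase gene Pitrm1 by 0.56 and the phosphofructokinase gene Pfkp by 0.10. On chromosome 6 the cluster runs Akr1b3, Akr1b8, Akr1b10 and Akr1b7, at -1.10, -0.35, -0.94 and -0.46. Its measured neighbours ran from -0.02 for Chchd3, of the mitochondrial inner membrane, to 2.78 for the exocyst gene Exoc4, whose other probe gave 0.34, with Slc35b4 at 0.38, Bpgm at 0.28, Cald1 at 1.07 and Tmem140 at 0.13. No test of a regional difference was made. Centring moves all these values together, so the signs hold only relative to the 75th percentile.

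**Figure D5:**
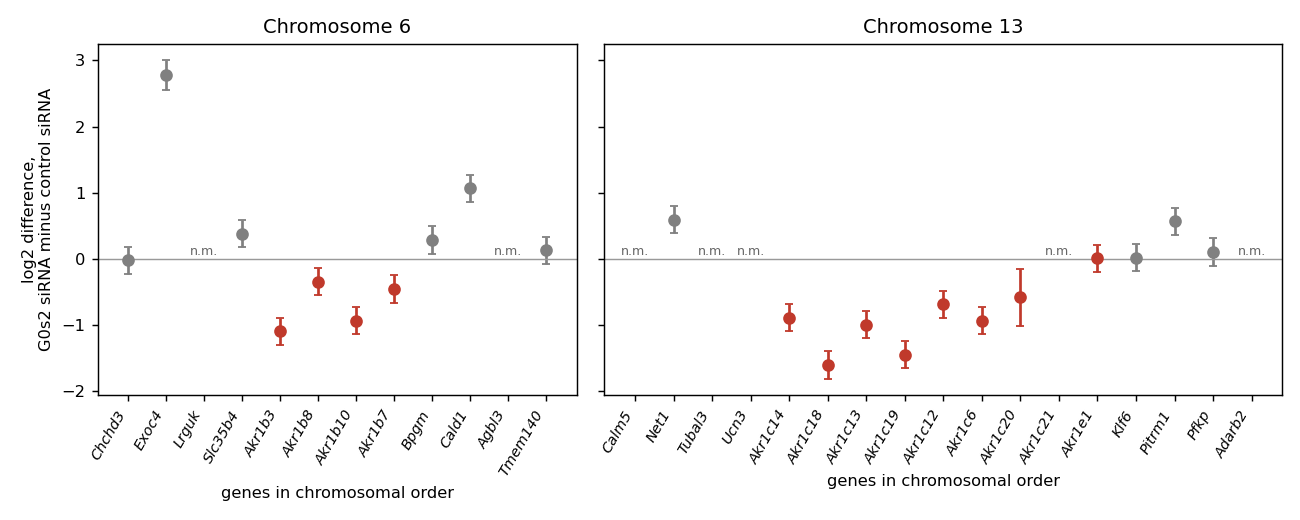
Log2 difference, G0s2 siRNA minus control siRNA, for genes in chromosomal order around the Akr1b cluster (chromosome 6) and the Akr1c cluster (chromosome 13), 1 array per group; red points are aldo-keto reductase genes, grey points the 4 protein-coding neighbours on each side, bars the scanner error, and n.m. marks genes not measured. Red points other than Akr1e1 lie between -1.60 and -0.35, and grey points between -0.02 and 2.78.

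Promoters are shown for 3 neighbouring members because they are close relatives whose differences ran from -1.45 to -0.68. RefSeq promoter windows (GRCm38.p6) were found for 8 of the 10 members and 15 genes of the superfamily, and the 250 bases before each start were compared. Akr1c12 and Akr1c13 shared 235 bases, or 95.5% of those aligned, and Akr1c19 shared 154 with Akr1c13 and 149 with Akr1c12. Over all 105 pairs of promoters, 154 was the highest count after the first pair. The windows are chr13:4279400-4279649 (minus) for Akr1c12, chr13:4190937-4191186 (plus) for Akr1c13 and chr13:4233490-4233739 (plus) for Akr1c19. Capitals mark the letters CATTAG, a repeat chosen after the sequences had been read, and TGTTTAC, the core bound by forkhead factors. Both were searched on both strands.
Akr1c12: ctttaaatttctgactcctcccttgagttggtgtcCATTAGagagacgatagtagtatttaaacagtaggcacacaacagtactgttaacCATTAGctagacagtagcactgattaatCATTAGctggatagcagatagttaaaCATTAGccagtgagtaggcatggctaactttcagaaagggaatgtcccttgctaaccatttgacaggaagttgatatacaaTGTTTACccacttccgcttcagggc
Akr1c13: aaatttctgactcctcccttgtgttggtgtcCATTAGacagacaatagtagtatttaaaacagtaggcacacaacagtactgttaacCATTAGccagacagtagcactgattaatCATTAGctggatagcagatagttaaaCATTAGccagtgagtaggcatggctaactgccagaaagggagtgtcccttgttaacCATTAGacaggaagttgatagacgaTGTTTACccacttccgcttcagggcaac
Akr1c19: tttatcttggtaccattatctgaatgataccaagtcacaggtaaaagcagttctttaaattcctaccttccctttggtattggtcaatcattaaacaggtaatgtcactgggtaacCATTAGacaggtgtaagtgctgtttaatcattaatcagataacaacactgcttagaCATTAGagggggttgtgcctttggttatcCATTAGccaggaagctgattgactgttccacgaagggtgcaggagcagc
CATTAG occurred 4 times before Akr1c12, 5 times before Akr1c13 and 3 times before Akr1c19. At least 3 copies were found in 0.0244% of 32851 promoters, and at least 1 copy in 6.36%. Because CATTAG was picked from the windows shown, its rarity elsewhere is no evidence of enrichment. The windows of Akr1c12 and Akr1c13 are nearly the same sequence, so their copies are not separate occurrences. One copy stood before Akr1c6 and 0 before Akr1c14, which had similar differences. TGTTTAC stood before Akr1c12, Akr1c13, Akr1b7, Akr1b10 and Akr1c21, and in 3.17% of all promoters. The antioxidant response element core, searched as TGACNNNGC on both strands, was in 10.2% of all promoters and in 0 of the 8 member windows, which says only that those letters are not in them. In the windows shown the capitals of one motif do not overlap those of the other, and a match is no evidence of binding.

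Enzymes around the aldo-keto reductases were read from lists, each with its count past 2-fold and its median. In the bile acid synthesis list, which surrounds Akr1d1 and Akr1c14, 0 of 13 measured genes were past 2-fold and the median was 0.10. Values ran from -0.77 for the racemase gene Amacr to 0.88 for the sterol hydroxylase gene Cyp27a1. Cyp7a1, Cyp8b1 and Ch25h of this list of 16 were not measured. Steroid dehydrogenases and reductases outside the superfamily had a median of 0.15, with 11 of 14 above 0, of which 2 were past 2-fold by their brightest probes. These were the 5-alpha-reductase gene Srd5a2, at 154.2 with G0s2 siRNA and 31.2 with control siRNA, 2.84-fold higher, and the hydroxysteroid dehydrogenase gene Hsd3b3 at 1.08. Under normexp Srd5a2 was at 0.50, short of 2-fold, and Hsd3b3 at 1.15. Dimmer probes were past 2-fold higher for Hsd17b7, at 1.17 against 0.58 by its brightest, and for Hsd3b2, at 1.15 against 0.56. Another probe of Hsd3b2 gave 0.09. The polyol and fructose list holds enzymes downstream of Akr1b3 and also the sugar transporter genes Slc2a2 and Slc2a5, and its median was 0.06. Sord, the sorbitol dehydrogenase gene, was at -0.60, and so was the fructokinase gene Khk. Past 2-fold was 1 of 7, the glycerate kinase gene Glyctk at 1.28. Its other probe gave 0.68, and the mean over probes, 0.98, was short of 2-fold.

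Carbonyl and quinone reductases of other families had a median of -0.40, with 9 of 12 below 0 and 0 past 2-fold, by their brightest probes. For Ptgr2 the brightest probe gave -0.33, and dimmer ones gave -0.26 and 1.15, the latter past 2-fold higher. Values ran from -0.87 for Ptgr1, which reduces prostaglandins and enals, to 0.21 for Dhrs4, with the carbonyl reductase gene Cbr1 at -0.23 and Nqo1, a quinone reductase gene, at -0.52. Aldehyde dehydrogenases, which oxidise aldehydes that aldo-keto reductases reduce, had a median of -0.03 with 1 of 17 past 2-fold, Aldh6a1 of valine breakdown at 1.75. In the list of the factor NRF2 and its targets, a pathway known to raise several aldo-keto reductases, the median was -0.04 and 1 of 18 was past 2-fold, the cystine transporter gene Slc7a11 at 2.56, and at 1.36 under normexp. The glutathione reductase gene Gsr was at -0.92 by its brightest probe, and its other probe gave -1.11, past 2-fold lower. Nfe2l2, which encodes NRF2, was at 0.10.

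Markers of cell types moved with the members in part. Hepatocyte markers had a median of 0.38, with 1 of 8 below 0 and 2 of 8 at least 2-fold higher by their brightest probes. A dimmer probe of Apob gave 1.26, against 0.31 by its brightest. Cps1, the entry enzyme gene of the urea cycle, had 6160 on the G0s2 siRNA array and 455.1 on the control array, a difference of 2.96, and the nuclear receptor gene Hnf4a was at 1.04, or 0.95 after removal of the probe position trend. The summed processed signal of the 8 hepatocyte markers was 853147 on the G0s2 siRNA array and 424718 on the control array. Cholangiocyte markers had 5 of 5 measured genes below 0 and a median of -0.94, with Krt19 at -1.13, or -0.90 under normexp, and Cldn7 at -1.29. Their summed signal was 3115 with G0s2 siRNA and 3205 with control siRNA, no measured marker was at 0 and Epcam was not well above background. Macrophage markers had a median of -0.09 and were split, with 3 of 6 below 0, from -1.18 for Mpeg1 to 0.67 for Adgre1. Endothelial markers had a median of 0.77, the value of Pecam1, at 67.57 with G0s2 siRNA and 22.72 with control siRNA. Below 0 were 2 of 5, Kdr at -0.51 and Stab2 at -0.18 ± 0.21, within its error. A dimmer probe of Kdr, at 72.09 with G0s2 siRNA and 17.23 with control siRNA, gave 1.27. Cdh5, the one endothelial marker past 2-fold by its brightest probe at 1.01, was at 0.13 under normexp. The median was 0.09 for 2 stellate cell markers and -0.63 for 3 lymphocyte markers, all 3 below 0, with Cd3e at -1.01, or -0.97 under loess. The part of these cell types in the members' differences was not tested, and fewer cells of a type and less RNA per cell cannot be told apart in these samples.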

How the data were processed

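Spot intensity on 1-colour (Cy3) arrays was read with Agilent Feature Extraction 10.7.1.1, per the file headers, and the processed signals are background-corrected linear values. Labelling started from 0.5 ug of RNA, per the labels' protocols. The authors' deposited series table holds linear intensity values made by a normalization not given in the sources used here; it served as an alternative. Both arrays lay on 1 slide, so array position and group cannot be told apart. Control spots and outlier spots were dropped (5 probes were lost) and replicate spots averaged. Of 39424 probes, 30996 were named through a RefSeq gene table (GRCm38.p6). A gene's value is that of its brightest probe among those well above background on either array, as log2 signal less the array's 75th percentile. A gene dim on 1 array entered as a bound. The members, gene lists and settings were chosen with earlier results of these data known. Named were all members, G0s2, listed relatives, up to 4 genes past 2-fold per list and some that describe a list; neighbours were added after values were seen. The calculation was tested on simulated data. Tools were Python 3.11.15, numpy 2.4.6, pandas 2.3.3, statsmodels 0.14.6, Biopython 1.88, matplotlib 3.10.9, R 4.3.3 and limma 3.58.1. The number of arrays limits the precision.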

Additional observations from a re-analysis of the deposited data

How the results depend on the processing

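The 9 measured members had a median below that of all genes under each of 12 other settings, with members minus all genes at -0.88 to -0.69 on the log2 scale. The members were chosen for being lower on these same arrays, so this order follows from the choice and is no support for it. Settings that only change the centring shift all genes alike and can hardly alter it. Of the 12 settings 1 (no centring) was chosen after seeing the data. With no filter on dim probes Akr1d1 also entered, and the median over 10 members was -0.79. The members' direction against 0 depended on the centring. Spike-in centring shifts every difference by 1.40. That shift is uncertain, as the 8 spike-in probes had a mean log2 ratio of -0.60 but ran from -0.98 to -0.04. With it the members' median was 0.51 (all genes 1.34), Akr1b3 was at 0.31, Krt19 at 0.27, Cldn7 at 0.11, Mpeg1 at 0.22 and Cd3e at 0.39. Under this centring 0 members were at least 2-fold lower and 2 were at least 2-fold higher, Akr1b8 at 1.05 and Akr7a5 at 1.099. Without centring the median was -0.092 (all genes 0.74) and the count 0. The count of 2 was 1, Akr1c19, under quantile normalization and with the authors' processed values, 6 at 1.5-fold and with more than 2 times the scanner error, and 0 at 3-fold. With normexp (offset 50) it was 2, but Akr1c12 and Akr1c19, and Akr1b3 was at -0.87. The normexp values started from mean spot signals and median background signals, not from the processed signals, so more than the background correction differs. G0s2 differed by -2.36 under normexp, -1.30 with spike-in centring and -1.90 without centring. Genes at least 2-fold lower numbered 842, and 518 under normexp, 47 with spike-in centring, 156 without centring and 1455 with no filter on dim probes, while those at least 2-fold higher numbered 742, 378, 11904, 4555 and 1523. Removing a lowess trend (span 0.3) with probe position left the members' median at -0.88. No paired analysis was possible because each group has 1 array, and for the same reason no replicate could be left out.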
